A study of Mus musculus with 74 samples.

Results

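The tumours described here are the largest lung tumours of a barcoding study in mice, those estimated at 10000 cells or more. Of 378754 tumours listed, 3630 reached that size once spike-in entries and constructs carrying 1 guide in duplicate were set aside. These were 2403 tumours in 45 H11-Cas9 mice, 837 in 20 H11-LSL-Cas9 mice and 390 in 9 KT mice, and the same mice had 115445 smaller tumours in H11-Cas9, 48376 in H11-LSL-Cas9 and 204546 in KT. Tumours were chosen by their size, so their sizes and their share of all tumours are a description here. The tests concern which guides they carried and, once, how many there were per mouse.

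In the study, lung tumours were started in mice with a pool of lentiviruses, each carrying Cre, a tumour barcode and 2 guide RNAs, and lungs were taken about 3 months later. The barcode and both guides were amplified together from 32 µg of DNA of the whole lung and sequenced, with 1 library per mouse. Each tumour was thus known by its mouse, its guide in place 1, its guide in place 2, its reads and its estimated cells. The H11-Cas9 mice (KT_H11_Cas9 in the genotype label) carried Cas9 at the H11 locus on the background that the labels call KT, which has a Tomato reporter. The H11-LSL-Cas9 mice (KT_H11_LSL-Cas9) carried on that background a Cas9 that Cre has to switch on by removing a stop cassette. The protocol text shared by all samples spells both Cas9 alleles with LSL, so the difference between these groups rests on the genotype label of each mouse. The KT mice had the same background and the same viruses but no Cas9, so their guides could not cut. Neither age, sex nor viral dose is given in the sources used here, and a guide in a Cas9 mouse need not have cut both copies of its gene in every tumour.

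A tumour suppressor is a gene whose loss lets a clone divide more or die less, and lung tumours of this kind are known to grow faster when such genes are lost. Lkb1 (Stk11) is a kinase that activates AMPK and related kinases, Setd2 trimethylates lysine 36 of histone H3, and Rb1 holds E2F transcription factors in check before S phase. Large tumours are the far end of clonal growth, so the guides they carry can differ from those of the many small tumours beside them.

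Reads per mouse ranged from 118126 to 6244121 in H11-Cas9, from 37 to 1157665 in H11-LSL-Cas9 and from 1417718 to 11058126 in KT mice. A tumour of 10000 cells corresponded to a median of 1256, 776 and 2074.5 reads in these groups, and the large tumour with the fewest reads had 89, so every large tumour was well covered. One H11-LSL-Cas9 mouse, with 4 tumours in all, had no large tumour, and 19 of 20 entered the tests. The spike-in total used to set the cells was near 100000 in 25 H11-Cas9 and 5 KT mice and near 300000 in 20 H11-Cas9, 20 H11-LSL-Cas9 and 4 KT mice. The letters that begin the mouse names were shared by some H11-Cas9 and KT mice but by no H11-LSL-Cas9 mouse with another group, so name series and genotype cannot be told apart for H11-LSL-Cas9.

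Large tumours were few but held most of the tumour cells of the Cas9 mice. They were 2.04% of tumours and 88.0% of summed cells in H11-Cas9 mice, 1.70% and 81.0% in H11-LSL-Cas9 mice, and 0.190% and 5.15% in KT mice. Per mouse, the number of large tumours had a lowest, median and highest value of 11, 42 and 337 in H11-Cas9 mice, 0, 40 and 123 in H11-LSL-Cas9 mice, and 6, 32 and 147 in KT mice. The numbers per mouse overlapped throughout, while KT mice had many more tumours in all, with a median of 2531 for H11-Cas9 and 2610.5 for H11-LSL-Cas9 mice, against 19156 in KT mice. The mean log2 number of large tumours differed from KT by 0.55 in H11-Cas9 mice (2-sided permutation of mouse labels, p = 0.155). For H11-LSL-Cas9 mice the difference was -0.12 (same test, p = 0.878). Both differences turned in sign with the size limit that selects the tumours. For H11-Cas9 mice the difference was -1.49 at 5000 cells and 3.26 at 20000 cells. For H11-LSL-Cas9 mice it was -2.29 and 2.61 at the same limits. The choice of limit thus set the result, so this test cannot decide whether the groups differ in number, and no conclusion is drawn from it. Within the mice of spike-in total near 100000 the H11-Cas9 difference was 0.16 (permutation p = 0.752), and within 300000 it was 1.04 (permutation p = 0.0854).

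As a share of all tumours of the mouse, large tumours had a lowest, median and highest value of 0.601%, 1.71% and 11.9% in H11-Cas9 mice, 0%, 1.49% and 6.25% in H11-LSL-Cas9 mice, and 0.0242%, 0.167% and 0.366% in KT mice. Every H11-Cas9 mouse lay above every KT mouse. The mean share minus that of KT mice was 1.86 percentage points for H11-Cas9 and 1.74 for H11-LSL-Cas9 mice. Within the spike-in total near 100000 the H11-Cas9 difference was 2.08 points, and within 300000 it was 1.58 points, beside 1.77 points for H11-LSL-Cas9. Size differed too, as a description: the median large tumour held 34163 cells in H11-Cas9, 31330 in H11-LSL-Cas9 and 12186 in KT mice. Tumours over 100000 cells numbered 586, 171 and 3, and tumours over 1000000 cells numbered 43, 7 and 1. The limit of 10000 cells cut through a continuous range, the smallest large tumour holding 10007.5 cells in H11-Cas9, 10000 in H11-LSL-Cas9 and 10009.4 in KT mice, and the largest tumour outside it 9995.75, 9999.51 and 9997.40 cells.

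**Figure D1:**
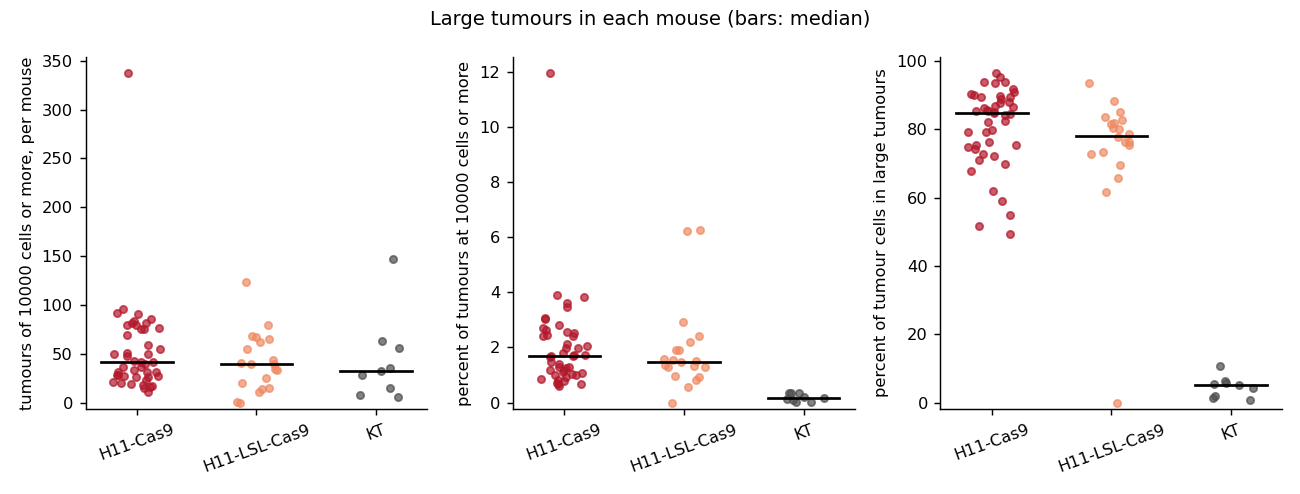
Number of tumours of 10000 cells or more, their percent of all tumours and their percent of all tumour cells, per mouse (points), with the median of each group (bars), for H11-Cas9, H11-LSL-Cas9 and KT mice. Numbers per mouse overlap between the groups, while large tumours hold a median of 84.7% of a mouse's tumour cells in H11-Cas9, 78.2% in H11-LSL-Cas9 and 5.15% in KT mice.

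To ask which guides the large tumours carried, the observed number of each genotype was set against an expected number, the large tumours of a mouse times the genotype's share among its tumours under 10000 cells, summed over mice. A genotype was called higher or lower where both a sign-flip permutation over mice and an exact Poisson test passed, with the larger p adjusted by the Benjamini-Hochberg method. All genotypes with at least 5 expected were tested, and errors of log2 ratios are jackknife standard errors over mice. Shares sum to 100%, so a genotype can lie below its share because others lie above theirs. Guides can also cut in the smaller tumours of Cas9 mice, so the expected numbers need not follow the shares of KT mice. A ratio therefore reflects the smaller tumours as well as the large ones.

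Constructs aimed at 2 different genes were higher among large tumours of the Cas9 mice. They made up 75.9% of large against 65.4% of small tumours in H11-Cas9 mice (1823 observed, 1567 expected, adjusted p = 1.67e-05) and 78.9% against 67.9% in H11-LSL-Cas9 mice (660 and 568, adjusted p = 0.000675). In KT mice, 256 were observed and 270 expected (adjusted p = 0.754). This was the single class called higher of 5 tested in each Cas9 group (20%), while 60% of classes were lower in H11-Cas9, 80% in H11-LSL-Cas9, and 0% were called in KT mice. Constructs with 1 gene and an inert guide were lower, with 384 observed against 531 expected in H11-Cas9 and 121 against 172 in H11-LSL-Cas9 mice (adjusted p = 1.67e-05 and 0.000675). Constructs with 2 inert guides gave no large tumour in the Cas9 mice, with 0 of 1107 in H11-Cas9 (23.9 expected, adjusted p = 1.67e-05) and 0 of 400 in H11-LSL-Cas9 (6.67 expected, adjusted p = 0.00346). These zeros allow shares of up to 0.271% and 0.75%, counting error only. In KT mice, 1 such tumour was large and 2.81 were expected, too few to test.

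Set against KT mice, the log2 ratio of observed to expected of 2-gene constructs was higher by 0.29 ± 0.04 in H11-Cas9 (adjusted permutation p = 4e-05) and by 0.29 ± 0.05 in H11-LSL-Cas9 mice (adjusted permutation p = 0.00028), the only class of 4 called higher in each (25%). That of constructs with 1 gene and an inert guide was lower by 0.67 ± 0.12 and 0.71 ± 0.15 in the same groups (adjusted permutation p = 0.00032 and 0.00524), with 50% and 75% of classes lower.

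Among single genes, counted in any construct, 5 of 17 were higher (29.4%) and 8 lower (47.1%) in H11-Cas9 mice, and 4 higher (23.5%) and 4 lower (23.5%) in H11-LSL-Cas9 mice. Of these, 4 and 3 of the higher genes are described here. In KT mice, 0 of 16 were called (0%), with 0 at an unadjusted p under 0.05 by the larger of the 2 p-values. Kmt2a had 18 against 9.52 expected there, with an exact Poisson p of 0.0132 and a sign-flip p of 0.102. A tumour with 2 targeted genes counts for both, so the genes are not independent of each other.

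Lkb1, the kinase, was the most over-represented gene in both Cas9 groups among the genes described here. Its share of a mouse's large tumours had a lowest, median and highest value of 2.78%, 16.3% and 47.1% for H11-Cas9, 0%, 17.9% and 40% for H11-LSL-Cas9, and 0%, 12.2% and 50% in KT mice. Among smaller tumours the same values were 4.90%, 6.70% and 9.29%, then 6.67%, 10.3% and 12.2%, then 13.2%, 13.4% and 13.6%. Large tumours thus carried Lkb1 guides above the share of smaller ones in 44 of 45 H11-Cas9 and 15 of 19 H11-LSL-Cas9 mice, and in 3 of 9 KT mice. The sums were 434 observed against 169 expected in H11-Cas9 (2.58-fold, log2 1.36 ± 0.08, adjusted p = 5.67e-05) and 181 against 87.5 in H11-LSL-Cas9 (2.07-fold, log2 1.05 ± 0.15, adjusted p = 0.00115). Of all Lkb1 tumours, 5.23% reached 10000 cells in H11-Cas9, 3.41% in H11-LSL-Cas9 and 0.156% in KT mice.

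Setd2, the histone methyltransferase, was higher by less. Its share of a mouse's large tumours ran from 0% over a median of 16.7% to 30% in H11-Cas9 mice, from 7.14% over 20% to 100% in H11-LSL-Cas9 mice and from 0% over 15.6% to 33.3% in KT mice. The 100% came from a mouse with 1 large tumour. The ranges overlapped, and the mouse medians of smaller tumours were 13.7%, 14.5% and 14.6%. The sums were 418 against 326 expected in H11-Cas9 (1.28-fold, adjusted p = 0.00107) and 168 against 123 in H11-LSL-Cas9 (1.37-fold, adjusted p = 0.00238). The other chromatin genes were not higher. Kmt2a and Kmt2b, which methylate lysine 4 of histone H3, were lower in H11-Cas9 mice (35 against 59.7 expected and 20 against 35.5, adjusted p = 0.00278 and 0.00993), and Kmt2b lost its call without H11-Cas9 mouse 24, which had 337 large tumours (adjusted p = 0.0577). Neither passed in H11-LSL-Cas9 mice, with 20 against 21.1 and 13 against 16.9 expected. KT mice had 6 against 9.98 for Kmt2b (0.601-fold, not called). The Kmt2b log2 ratio of H11-Cas9 mice differed from KT by -0.12 ± 0.55 (adjusted permutation p = 0.919). Kat7, an acetyltransferase, and Meaf6, a subunit of such complexes, had ratios of 0.794 and 1.07 in H11-Cas9 and 0.546 and 0.587 in H11-LSL-Cas9 mice and passed in neither.

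Of the Wnt pathway genes, Apc was higher in both Cas9 groups and Rnf43 lower in H11-Cas9 mice. Apc is a scaffold of the complex that degrades β-catenin, and Rnf43 is a ubiquitin ligase that removes Frizzled receptors. The mouse median of the Apc share of large tumours was 8.86% in H11-Cas9, 12.2% in H11-LSL-Cas9 and 9.38% in KT mice, and that of smaller tumours 7.40%, 8.79% and 9.66%. Apc had 232 observed against 178 expected in H11-Cas9 (1.30-fold, adjusted p = 0.0126) and 102 against 72.6 in H11-LSL-Cas9 mice (1.4-fold, adjusted p = 0.0179). The excess was seen in 27 of 45 and 12 of 19 mice, so many single mice showed none. Rnf43 was lower in H11-Cas9 mice, in 37 of 45 of them (329 against 411 expected, 0.801-fold, adjusted p = 0.000114), and had 113 against 133 in H11-LSL-Cas9 mice (adjusted p = 0.157).

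The cell cycle genes differed between the Cas9 groups. Rb1 had 397 observed against 308 expected in H11-Cas9 mice (1.29-fold, log2 0.37 ± 0.07, above in 34 of 45 mice, adjusted p = 0.000368) and 87 against 97.4 in H11-LSL-Cas9 mice (0.893-fold, adjusted p = 0.352). p53 (Trp53), a transcription factor of the stress response, had 488 against 495 in H11-Cas9 (0.986-fold, adjusted p = 0.787) and was lower in H11-LSL-Cas9 mice with 110 against 157 (0.70-fold, below in 16 of 19 mice, adjusted p = 0.00289). The difference of log2 ratios, H11-Cas9 minus H11-LSL-Cas9, was 0.53 ± 0.17 for Rb1 and 0.49 ± 0.16 for p53 (adjusted permutation p = 0.00672 each). They were the genes called higher in this comparison, 11.8% of 17, and 5.88% were lower. Over the mice of spike-in total near 300000 alone the differences were 0.53 and 0.54 (adjusted permutation p = 0.0403 each). Constructs with p53 in place 1 and guide 1 of Rb1 in place 2 are described with the pairs. They held 94 of the 397 Rb1 and of the 488 p53 large tumours of H11-Cas9 mice. Without those constructs, an alternative chosen after the data were seen, Rb1 had 303 against 284 in H11-Cas9 mice (1.07-fold, adjusted p = 0.364). p53 then had 394 against 465 there (0.848-fold, adjusted p = 0.0033). The group differences were then 0.33 ± 0.17 for Rb1 and 0.34 ± 0.18 for p53, and neither passed (adjusted permutation p = 0.205 and 0.147). Those constructs were left out for their many large tumours, a choice that by itself lowers both genes. Values without them, here and below, are therefore a description.

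Both genes that switch RAS off by stimulating its GTPase were common in large tumours, and neither was called higher. Nf1 was in 20.8% of large and 19.8% of small tumours of H11-Cas9 mice (501 against 469 expected, adjusted p = 0.258) and in 19.5% and 16.3% in H11-LSL-Cas9 mice (163 against 137, adjusted p = 0.0511). In H11-LSL-Cas9 mice Nf1 passed as higher on leaving out any 1 of 5 mice (adjusted p from 0.0284 to 0.0497), and without the p53 and Rb1 constructs just named (adjusted p = 0.0488). Rasa1 was lower in both groups, with 307 against 414 in H11-Cas9 (0.742-fold, adjusted p = 5.67e-05) and 84 against 128 in H11-LSL-Cas9 mice (0.658-fold, adjusted p = 0.000567). Keap1, the adaptor that marks NRF2 for degradation, was lower in H11-Cas9 mice (168 against 246, 0.684-fold, adjusted p = 5.67e-05) and had 97 against 111 in H11-LSL-Cas9 mice (adjusted p = 0.342).

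Pcna, the sliding clamp of DNA replication, was the least represented gene in both Cas9 groups among those described here. Its share of a mouse's large tumours had a median of 0% in both Cas9 groups, with a highest value of 2.38% for H11-Cas9 and 2.94% for H11-LSL-Cas9, against a median of 15.6% and a highest value of 26.7% in KT mice. The sums were 6 observed against 23.9 expected in H11-Cas9 (0.251-fold, adjusted p = 0.000114) and 6 against 39.8 in H11-LSL-Cas9 mice (0.151-fold, adjusted p = 0.00034), beside 57 against 55.1 in KT mice. The cyclin L genes, partners of CDK11 in splicing, were lower in H11-Cas9 mice, with 30 against 56.3 for Ccnl1 and 69 against 105 for Ccnl2 (adjusted p = 0.000435 and 0.00051). In H11-LSL-Cas9 mice Ccnl2 was lower with 20 against 36.7 (adjusted p = 0.0091, or 0.0778 without mouse 11), and Ccnl1 had 10 against 19.3 (adjusted p = 0.0511).

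**Figure D2:**
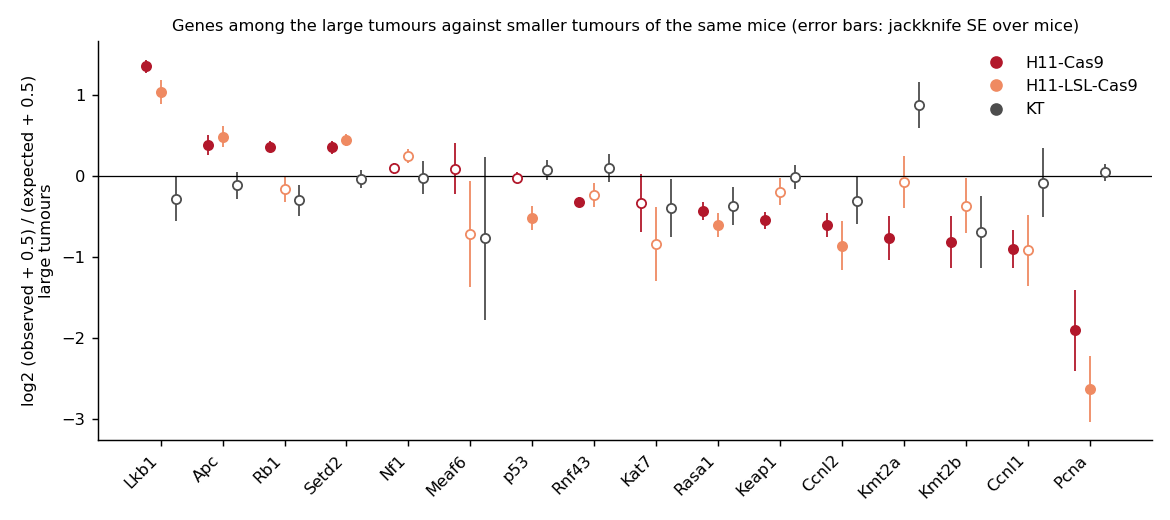
Log2 ratio of observed to expected large tumours for 16 genes in H11-Cas9, H11-LSL-Cas9 and KT mice, with jackknife standard errors over mice as bars and filled points where the within-mouse test passed. Lkb1 lies furthest above 0 in both Cas9 groups and Pcna furthest below, and no KT point is filled.

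Against KT mice, with their 390 large tumours, fewer genes passed. In H11-Cas9 mice 2 of 16 genes had a higher log2 ratio (12.5%) and 0 a lower one (0%, with 4 of 16 genes at an unadjusted p under 0.05 in either direction). The difference was 1.65 ± 0.28 for Lkb1 (adjusted permutation p = 0.00016) and 0.66 ± 0.20 for Rb1 (adjusted permutation p = 0.012). Without constructs with p53 in place 1 and guide 1 of Rb1 in place 2, the Rb1 difference was 0.36 ± 0.21 (adjusted permutation p = 0.17). In H11-LSL-Cas9 mice 2 were higher (12.5%), Lkb1 by 1.33 ± 0.31 and Setd2 by 0.48 ± 0.14 (adjusted permutation p = 0.00848 and 0.0373), and Pcna was lower (6.25%) by 2.68 ± 0.42 (adjusted permutation p = 0.0339). The Setd2 call was lost without KT mouse 2, 3, 7 or 8 (adjusted permutation p from 0.0562 to 0.0858) and the Pcna call without KT mouse 3, 7 or 8 (0.0641 to 0.069). With labels permuted within spike-in totals, the Lkb1 and Setd2 differences of H11-LSL-Cas9 mice had an adjusted permutation p of 0.084 each.

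With an inert partner guide, most genes were at or below their share of large tumours. In H11-Cas9 mice 1 of 15 genes was higher (6.67%) and 7 were lower (46.7%). The gene above was Lkb1, with 46 observed against 20.7 expected (2.22-fold, log2 1.13 ± 0.17, adjusted p = 9e-05). Nf1 with an inert guide had 68 against 66.0 (adjusted p = 0.805). Setd2 had 33 against 44.1, Apc 17 against 21.1 and Rb1 28 against 39.4 (adjusted p = 0.133, 0.477 and 0.118). These genes, higher over all constructs of H11-Cas9 mice, were thus not above their share with an inert guide. Lower were Rasa1 (14 against 56.7), Keap1 (7 against 30.2), p53 (29 against 71.5), Rnf43 (24 against 51.7), Ccnl2 (4 against 15.9), Kmt2a (1 against 8.84) and Kmt2b (0 against 5.52). In H11-LSL-Cas9 mice 9.09% of 11 genes were higher and 36.4% lower, the lower ones being Rasa1 (2 against 16.6), Rnf43 (3 against 15.3), p53 (9 against 21.2) and Pcna (0 against 6.32), while Lkb1 had 11 against 10.6 (adjusted p = 0.929).

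The share of tumours reaching 10000 cells was also set against that of tumours with 2 inert guides, chosen after the data were seen. Since no inert/inert tumour was large, a gene could lie only above them, so this is a description, and ratios are lower bounds against 3 tumours over the group. The share was at least 19.3-fold higher for Lkb1, 9.85-fold for Apc, 9.78-fold for Rb1, 9.55-fold for Setd2 and 1.74-fold for Pcna in H11-Cas9 mice. Genes called lower or not called there lay above too, at least 7.92-fold for Nf1, 7.26-fold for p53, 6.04-fold for Rnf43, 5.64-fold for Rasa1 and 5.27-fold for Keap1. With an inert partner, bounds there were 3.49 for Rnf43, 3.07 for p53, 2.03 for Ccnl2, 1.98 for Rasa1, 1.76 for Keap1 and 0.870 for Kmt2a. In H11-LSL-Cas9 mice the share was at least 4.55-fold higher for Lkb1, 3.13-fold for Apc, 3.08-fold for Setd2 and 2.70-fold for Nf1. The bound there was 1.60 for p53, 1.52 for Rasa1 and 0.338 for Pcna.

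For some genes the guides differed. Of 33 guides, 7 were higher (21.2%) and 15 lower (45.5%) in H11-Cas9 mice, 4 higher (12.1%) and 5 lower (15.2%) in H11-LSL-Cas9 mice, and 0 of 31 were called in KT mice. The 2 guides of a gene were then compared directly for 10 genes, also chosen after the data were seen, with 30% higher for guide 1 and 10% lower in H11-Cas9 mice (sign flips and an exact binomial test). For Lkb1, 7.54% of guide 1 tumours and 3.63% of guide 2 tumours reached 10000 cells in H11-Cas9 mice (adjusted p = 2.5e-05), beside 3.39% and 3.42% in H11-LSL-Cas9 mice. For Rb1 the shares were 3.89% and 1.69% in H11-Cas9 mice (adjusted p = 2.5e-05), beside 1.66% and 1.46% in H11-LSL-Cas9 mice (adjusted p = 0.94). In H11-Cas9 mice guide 2 of Rb1 was itself below its share (146 against 176 expected, adjusted p = 0.039). Guide 1 of Rb1 had 257 against 137, and 163 against 119 without the constructs with p53 in place 1 (1.36-fold, adjusted p = 0.00237), where guide 2 had 146 against 170.2 (adjusted p = 0.0942). For Keap1 the order was turned, with 0.884% for guide 1 and 2.68% for guide 2 in H11-Cas9 mice (adjusted p = 2.5e-05). In H11-LSL-Cas9 mice the Keap1 shares were 1.28% and 1.82% (adjusted p = 0.753). The low Keap1 count of H11-Cas9 mice lay with guide 1 (72 against 169 expected, adjusted p = 5.5e-05), as guide 2 had 97 against 79.9 (adjusted p = 0.0818).

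Among gene pairs, 12 of 61 were higher (19.7%) and 7 lower (11.5%) in H11-Cas9 mice, and 10 of the higher and all 7 lower ones are described here. Of these 10, 8 contained Lkb1, which was itself 2.58-fold over expected across all constructs and 2.22-fold with an inert guide. The share of the 61 tested pairs that held Lkb1 or Keap1 is not given here, so such counts are a description. Apc with Lkb1 had the largest ratio, 30 observed against 7.02 expected in 18 mice (4.27-fold, log2 2.02 ± 0.37, adjusted p = 0.00468). Lkb1 with Setd2 had 43 against 13.3 (3.24-fold, adjusted p = 0.0113), although its log2 ratio of 1.66 was 0.02 within the mice of spike-in total near 300000 (adjusted p = 0.985). Lkb1 with Nf1 had 46 against 16.3 (2.83-fold, adjusted p = 0.00468). Lkb1 was further higher with Rb1 (2.64-fold), Keap1 (2.60-fold), Rasa1 (2.45-fold), Rnf43 (2.32-fold) and p53 (1.96-fold), with adjusted p from 0.00153 to 0.0384. The Lkb1 with p53 call was lost on leaving out any 1 of 13 mice (adjusted p from 0.0503 to 0.0683). Rasa1, Keap1 and Rnf43 were thus above their share in constructs with Lkb1 and below it over all constructs.

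The 2 pairs without Lkb1 both held Rb1. Apc with Rb1 had 28 against 12.8 (2.19-fold, adjusted p = 0.0143). The other, p53 with Rb1, had more large tumours than any other pair described here, 117 against 39.7 expected. All 7 lower pairs lacked Lkb1, and 4 of them held Keap1, again as a description. Keap1 was lower with Rasa1 (6 against 22.4, adjusted p = 0.00137), Rb1 (5 against 15.5, adjusted p = 0.0178, or 0.0581 without mouse 24), Rnf43 (10 against 24.2, adjusted p = 0.0113) and p53 (13 against 25.3, adjusted p = 0.0397, lost on leaving out any 1 of 11 mice). p53 with Rasa1 had 22 against 47.9 (0.459-fold, adjusted p = 0.000964). Ccnl1 with p53 and Kmt2a with Rasa1 gave 0 large tumours against 6.18 and 5.30 expected (adjusted p = 0.0171 and 0.0297), and without mouse 3, 16 or 24 the Kmt2a pair fell under the expected number needed for a test.

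Some pairs gave many large tumours without passing. Nf1 with p53 had 60 against 55.6 expected, Nf1 with Setd2 50 against 32.5 (adjusted p = 0.0504, passing as higher on leaving out any 1 of 21 mice, 0.0284 to 0.0499), Rnf43 with Setd2 47 against 30.3 (adjusted p = 0.19) and Nf1 with Rasa1 44 against 46.0. Apc with Nf1 had 36 against 18.9 (1.91-fold, adjusted p = 0.0717) and 14.9% of all cells in large tumours of H11-Cas9 mice, or 5.35% without its largest tumour, in mouse 14, with a median of 163595 cells. The median was 175947 cells for Apc with Lkb1, 80709 for Lkb1 with Nf1 and 21927 for p53 with Rb1, so the last pair gave many large tumours of modest size.

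**Figure D3:**
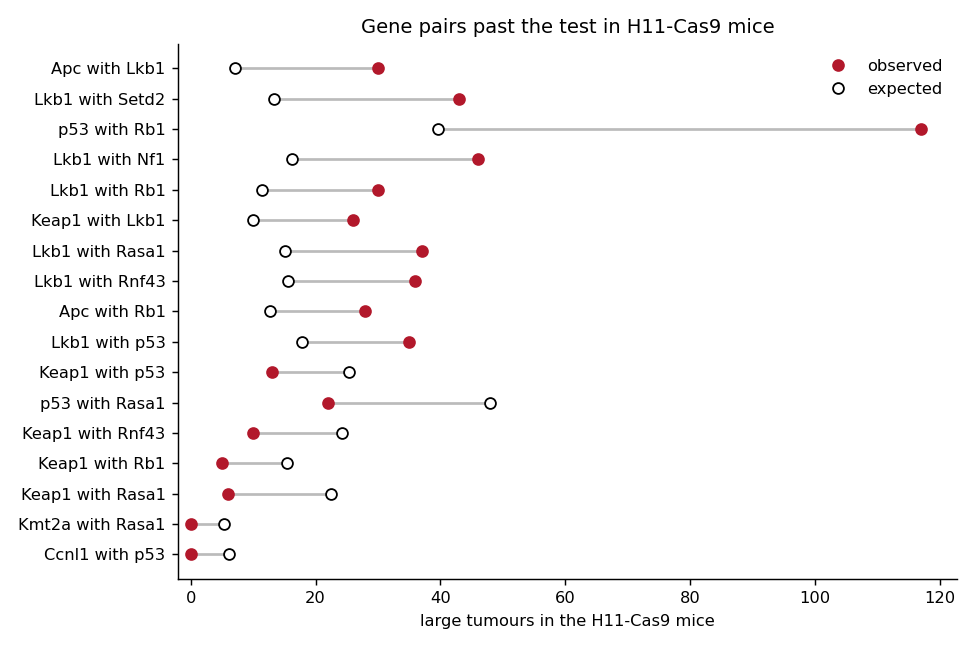
Observed (filled) and expected (open) numbers of large tumours in H11-Cas9 mice for the 17 gene pairs described here that passed the within-mouse test. p53 with Rb1 has the most observed, 117 against 39.7 expected, and the 10 higher pairs otherwise all carry Lkb1 except Apc with Rb1.

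In H11-LSL-Cas9 mice, with 837 large tumours, 2 of 43 pairs were higher (4.65%) and 1 lower (2.33%). Lkb1 with Rb1 was higher, 18 against 5.62 in 12 mice (3.20-fold, log2 1.60 ± 0.25, adjusted p = 0.0303), a call lost on leaving out any 1 of 10 mice (adjusted p from 0.0542 to 0.0674). Rasa1 with Rb1 was lower, 1 against 8.56 (adjusted p = 0.0464), and lost its call without any 1 of 17 mice (adjusted p from 0.0657 to 0.139). Beside Lkb1 with Rb1, the pairs described here with the most large tumours were Nf1 with Setd2 (20 against 11), Lkb1 with Setd2 (19 against 6.75), Keap1 with Nf1 (17 against 10), Keap1 with Setd2 (17 against 8.96), Lkb1 with Rnf43 (16 against 8.28), Lkb1 with Nf1 (16 against 6.59) and Rnf43 with Setd2 (15 against 10.1), none of which passed. In KT mice 0 of 8 pairs were called (0%), and 0 of 8 differed between either Cas9 group and KT (0%), with 0 at an unadjusted permutation p under 0.05. The KT pairs with the most large tumours were p53 with Setd2 (9 against 5.29) and Keap1 with Rnf43 (9 against 5.15).

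p53 with Rb1 differed between the Cas9 groups. Its share of a mouse's large tumours had a lowest, median and highest value of 0%, 5.26% and 11.9% for H11-Cas9, 0%, 0% and 6.82% for H11-LSL-Cas9, and 0%, 0% and 1.36% in KT mice, beside medians of 1.64%, 1.28% and 1.01% among smaller tumours. It was found in 37 of 45 H11-Cas9 mice, where it was 2.95-fold over expected (log2 1.55 ± 0.16, adjusted p = 0.00061). In H11-LSL-Cas9 mice it had 13 against 11.8 (1.10-fold, adjusted p = 0.93), and in KT mice 2 against 3.95. The difference of log2 ratios, H11-Cas9 minus H11-LSL-Cas9, was 1.42 ± 0.49 (adjusted permutation p = 0.00258), and 1.57 within spike-in total near 300000 (adjusted permutation p = 0.0032). Rasa1 with Rb1 differed as well, by 2.73 ± 1.46 (adjusted permutation p = 0.00817), and these were the pairs called of 43 (4.65%).

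Within p53 with Rb1 the large tumours lay with 1 arrangement of guides, a split chosen after its values were seen and given without a test. With p53 in place 1 and guide 1 of Rb1 in place 2, 94 of 769 tumours reached 10000 cells in H11-Cas9 mice, or 12.2% (95% exact binomial interval 9.99% to 14.7%, counting error only). The same arrangement gave 8 of 202 in H11-LSL-Cas9 mice, or 3.96% (1.73% to 7.65%), and 0 of 586 in KT mice (0% to 0.628%). Both p53 guides contributed, with 48 tumours against 6.77 expected for p53 guide 1 in 26 mice and 46 against 7.18 for p53 guide 2 in 25 mice. With guide 2 of Rb1 in place 2 the share was 6 of 556, or 1.08% (0.397% to 2.33%), in H11-Cas9 mice. With Rb1 in place 1 it was 7 of 238, or 2.94%, for guide 1 and 10 of 482, or 2.07%, for guide 2. Of the 117 large p53 with Rb1 tumours, 94 thus had 1 of the 4 arrangements. Without it, the pair had 23 against 24.9 expected in H11-Cas9 mice, and its difference between the Cas9 groups was 0.53 ± 0.59 on the log2 scale.

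**Figure D4:**
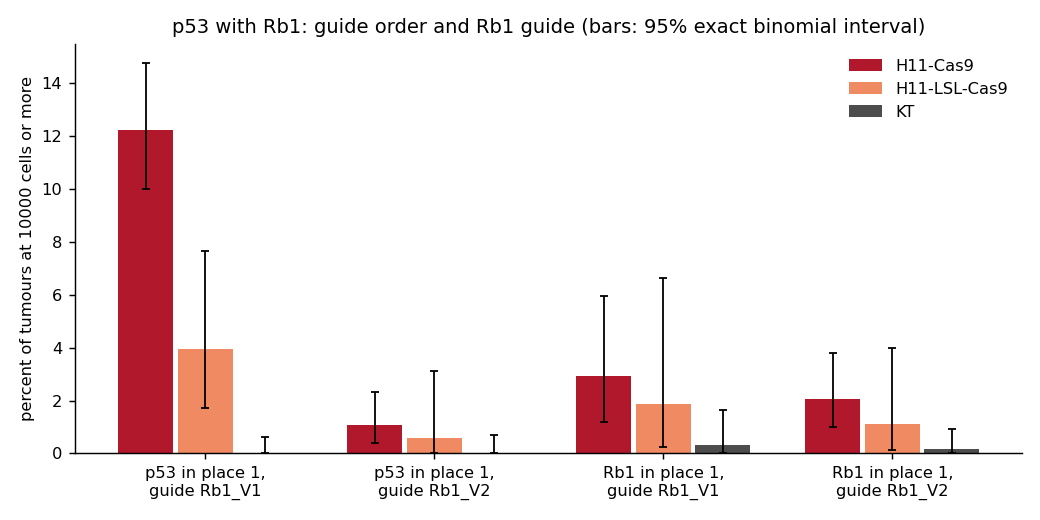
Percent of p53 with Rb1 tumours that reached 10000 cells, by which gene was in place 1 and by Rb1 guide, in H11-Cas9, H11-LSL-Cas9 and KT mice, with 95% exact binomial intervals as bars. p53 in place 1 with Rb1 guide 1 stands at 12.2% in H11-Cas9 mice, and the other arrangements lie between 1.08% and 2.94% there.

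By cells rather than by number, the order of genes was another, given as a description. Apc carried 33.1% of the cells of large tumours in H11-Cas9 mice and 29.2% in H11-LSL-Cas9 mice, while it was in 9.65% and 12.2% of large tumours. Nf1 carried 27.1% and 17.6%, and Lkb1 23.9% and 29%. Without the largest tumour of each group the shares were 25.5% and 25.3% for Apc, 18.8% and 13% for Nf1 and 26.6% and 30.6% for Lkb1, so a single tumour decided whether Apc or Lkb1 led in H11-Cas9 mice. Averaged over mice, the shares in H11-Cas9 were 26.3 ± 16.5% for Lkb1, 21.6 ± 21% for Apc and 20.9 ± 15.9% for Nf1 (SD, n = 45). In KT mice Nf1 carried 26.3% and Lkb1 22.6%, but 13.1% and 8.76% without the largest tumour, which bore both.

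In H11-Cas9 mice Apc was the most frequent gene described here in the largest class. It was in 7.71% of tumours of 10000 to 100000 cells, 12.9% of those of 100000 to 1000000 and 51.2% of those over 1000000, which is 22 of 43. Lkb1 was in 15.8%, 24.9% and 12 of 43, Rb1 in 17.5%, 12.7% and 10 of 43, and p53 in 22.5%, 13.4% and 6 of 43. Keap1 went the other way, with 8.48%, 2.39% and 1 of 43, as did Setd2 with 18.7%, 14.4% and 1 of 43. Of 7 H11-LSL-Cas9 tumours over 1000000 cells, 4 carried Apc and 4 carried Lkb1.

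**Figure D5:**
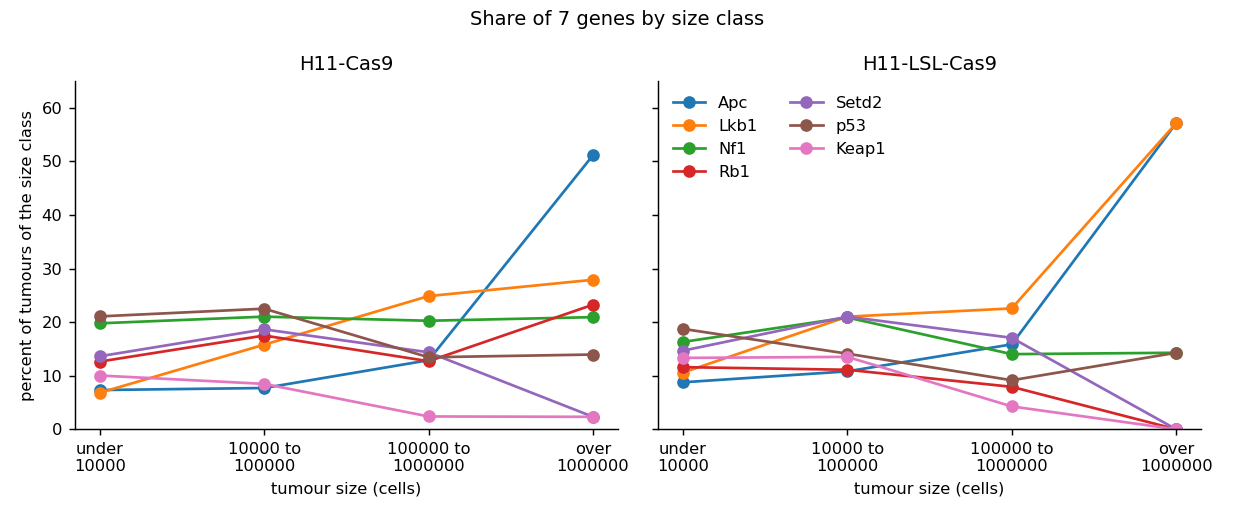
Percent of tumours carrying each of 7 genes, by size class from under 10000 to over 1000000 cells, for H11-Cas9 (left) and H11-LSL-Cas9 mice (right); the last class holds 43 and 7 tumours. The Apc line climbs in the last class to 51.2% in H11-Cas9 mice and is joined by Lkb1 in H11-LSL-Cas9 mice.

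The single largest tumour, in H11-Cas9 mouse 14, carried guide 1 of Nf1 and guide 2 of Apc and held 36808494 cells, 10.1% of all cells in large H11-Cas9 tumours and 80.9% of those of its mouse. The next described here carried Apc with Keap1 (1.10e+07 cells, mouse 24), Nf1 with Apc (4.17e+06, mouse 12), Lkb1 with Apc (4.10e+06, mouse 17) and Nf1 with Apc (3.48e+06, mouse 40). All 5 thus carried guide 2 of Apc. In H11-LSL-Cas9 mice the largest were Nf1 with Apc (3.94e+06 cells) and 2 tumours of Lkb1 with Apc (3.23e+06 and 2.83e+06), all in mouse 10, then Apc with Lkb1 in mouse 5 (1.04e+06) and p53 with Apc in mouse 18 (772369). In KT mice, whose guides could not cut, the largest held 1067450 cells in mouse 6 with guides for Lkb1 and Nf1, 15.2% of the cells of large KT tumours, and the next was p53 with Pcna in mouse 8 with 213820 cells.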

How the data were processed

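Per the deposited table, each tumour has a read column of raw counts, not normalized, and a cell column, which is a signal that the authors derived from reads through spike-in barcodes. How reads were turned into tumours is not known from these sources. Of 379042 entries, 288 with spike-ins and 6757 tumours carrying 1 guide in duplicate were left out. Groups came from the genotype label of each mouse, and replicate numbers follow accession order, so they name mice and pair none. Sign-flip and permutation p-values measure the spread between mice and Poisson and binomial ones counting error, and the within-mouse p is the larger of both kinds.

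Inert guides were EGFP, NT and the 3 safe ones, and NE counted as neither inert nor targeting. Expected numbers, tests and calls are as given with the results: sign flips were exact up to 16 mice and otherwise used 100000 resamples, with a pseudocount of 0.5 in log2 ratios, a minimum of 5 expected and calls at an adjusted p under 0.05. The smallest p that resampling can give is 1e-05. Intervals cover counting error only. The tests were tried on simulated data. Alternatives changed the size limit, the expected share, the test and the mice. Named are all single genes by role, the pairs with the most large tumours or the largest and smallest ratios, and the 5 largest tumours. The genotypes and lists were chosen with earlier results of these data known. Results for 1 gene and its pairs, and 1 allele of the shared background, are not reported here, while the gene stays in all tests and adjustments. Tests ran in scipy 1.17.1 and numpy 2.4.6 under Python 3.11.15, tables in pandas 2.3.3 and plots in matplotlib 3.10.9.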

Additional observations from a re-analysis of the deposited data

Results flagged for a closer look

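In KT mice, replicate 2 had 147 large tumours, far above the other 8, and the largest tumour of replicate 6, at 1.06745e+06 cells, was far above the largest of every other KT mouse. A gap of this kind arises by chance in about 1 of 20 groups where values are normally distributed. Tumour numbers and sizes need not be, so the rate here is not known. Leaving out replicate 2 kept the calls of Lkb1 and Rb1 against H11-Cas9 mice, and lost that of Setd2 against H11-LSL-Cas9 mice (adjusted permutation p = 0.0562). Without replicate 6, p53 passed as lower in H11-LSL-Cas9 mice against KT (adjusted permutation p = 0.0456).

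The H11-Cas9 and H11-LSL-Cas9 mice differed, by a permutation of mouse labels, in the log2 ratio of observed to expected large tumours for Rb1 (0.53), p53 (0.49), Rasa1 with Rb1 (2.73) and p53 with Rb1 (1.42). Without constructs with p53 in place 1 and guide 1 of Rb1 in place 2, the differences of Rb1, p53 and their pair were 0.33, 0.34 and 0.53 and did not pass. Those constructs were left out for their many large tumours, so these values are a description. Name series and genotype cannot be told apart for the H11-LSL-Cas9 mice.

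Constructs carrying 1 guide in duplicate, left out above, had large tumours too. They made up 1.29% in H11-Cas9 (26 of 2008, 95% exact interval 0.848% to 1.89%) and 1.38% in H11-LSL-Cas9 mice (8 of 579, 0.598% to 2.70%), against 0.0719% in KT mice (3 of 4170, 0.0148% to 0.21%).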

How the results depend on the processing

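No paired analysis was possible because each mouse has 1 genotype and the replicate numbers follow accession order. For single genes, pairs and classes, 894 of 1013 alternative values stayed on the same side of the threshold in the same direction, 69 lost a call, 47 gained one and 3 changed sign. Lkb1 was higher in all alternatives of the within-mouse test, and leaving out any 1 mouse did not change its call. Omissions of single mice aside, its log2 ratio was 1.08 to 1.62 for H11-Cas9 mice and 0.85 to 1.26 for H11-LSL-Cas9 mice. The pair p53 with Rb1 reached up to 1.70 in H11-Cas9 mice. It was -0.11 (adjusted p = 0.959) without constructs with p53 in place 1 and guide 1 of Rb1 in place 2.

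The number of large tumours per mouse depended on the size limit. At 5000 cells the log2 difference from KT was -1.49 for H11-Cas9 (permutation p = 0.00033) and -2.29 for H11-LSL-Cas9 (permutation p = 0.0045), at 20000 cells 3.26 (permutation p = 1e-05, the smallest the resamples can give) and 2.61 (permutation p = 0.00234), and as a percent of tumours 1.86 and 1.74 points. At 5000 cells, 2 pairs and 2 classes were lower in H11-LSL-Cas9 mice (reported: 1 and 4), and 4 genes were lower there against KT (1). At 20000 cells, 1 pair was higher and 0 lower in H11-LSL-Cas9 (2 and 1), 3 genes were lower in H11-Cas9 against KT (0), and Setd2 of H11-LSL-Cas9 minus KT was -0.26 (reported 0.48).

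Pairs moved most. With expected shares from tumours of 200 cells or more, 3 pairs were lower in H11-Cas9 (7), with 2 for H11-LSL-Cas9 (1). By sign flips alone, 11 and 6 pairs were lower, with 9 lower guides in H11-LSL-Cas9 (5). By the Poisson test alone, 12 pairs were higher and 3 lower in H11-LSL-Cas9. With mice weighted equally, 0 were higher and 0 lower there. With both Cas9 groups together, 8 genes were lower, 17 pairs higher and 11 lower, and 8 guides higher and 17 lower, and the log2 ratio of Rb1 was 0.26, against -0.16 in H11-LSL-Cas9 alone. With guides in places 1 and 2 apart, 9 were lower in H11-LSL-Cas9. Within spike-in total near 100000, 6 pairs were higher and 1 lower in H11-Cas9 (12 and 7), and Apc missed the threshold (adjusted p = 0.0701). Within 300000, 2 pairs were higher and 1 lower, 3 genes higher and 5 lower (5 and 8), and 4 guides higher and 7 lower (7 and 15), with Apc and Setd2 below the threshold (adjusted p = 0.177 and 0.164). These alternatives use fewer mice. Over mice named LA, 4 pairs were lower. Without H11-LSL-Cas9 mouse 11, which had the most large tumours there, 1 pair was higher. Against KT, the share among large tumours alone gave 4 genes higher and 3 lower in H11-Cas9 (2 and 0) and 4 higher in H11-LSL-Cas9 (2), and permuting within spike-in totals gave 0 higher there. The cause of the other changes was not tested.

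Leaving out each mouse in turn gave 5 genes higher and 7 to 8 lower in H11-Cas9, 4 to 5 higher and 3 to 6 lower in H11-LSL-Cas9, 11 to 14 pairs higher and 5 to 9 lower in H11-Cas9, and 1 to 2 higher and 0 to 1 lower in H11-LSL-Cas9. Against KT, it gave 2 genes higher and 0 lower in H11-Cas9, and 1 to 3 higher and 0 to 2 lower in H11-LSL-Cas9. The 390 large KT tumours limit the KT comparisons of pairs, where 8 had enough expected tumours.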

Other observations

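Constructs aiming both guides at the same gene gave 76 large tumours against 79.7 expected in H11-Cas9 mice (adjusted p = 0.737) and were lower in H11-LSL-Cas9 mice with 11 against 26.2 (adjusted p = 0.00222). In H11-Cas9 mice, Lkb1 with both of its guides had 8 large tumours against 1.34 expected and Setd2 10 against 4.60, too few expected for a test, while Nf1 had 12 against 12.7 and p53 8 against 14.2, neither of which passed.

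Among the inert guides of H11-Cas9 mice, safe guide 1 (231 against 361 expected), safe guide 2 (77 against 139) and NT (25 against 39.3) were lower, and EGFP had 37 against 36.7 (adjusted p = 0.988). The guide NE, of unstated kind, was lower in H11-Cas9 mice, with 120 against 202, and had 45 against 63.7 in H11-LSL-Cas9 mice, which passed as lower with p adjusted over classes (0.0171) and not over guides (0.0564).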
